A study of Mus musculus with 11 samples.

Results

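The 3 libraries of CD41- haematopoietic stem cells taken from mice after platelet depletion were set against the 2 libraries of CD41+ stem cells from control mice. These 5 of the 11 libraries were chosen by the treatment and fraction in their labels, and no measured value entered the choice. All cells came from C57BL/6 bone marrow and were sorted as lineage-negative, c-Kit+, Sca-1+, CD48- and CD150+, then divided by surface CD41. The depleted CD41- cells (n = 3) were sorted 24 h after the platelets had been removed, by an agent the labels do not name. The control CD41+ cells (n = 2) came from mice given rabbit serum, and control CD41- cells (n = 3) from such mice served as a further reference. Each library was made from 1000 cells pooled from 3 mice, so differences between single mice or cells could not be seen. The 2 main groups differed both in CD41 and in treatment, and the effects of these cannot be told apart within the comparison. The labels give neither the ages nor the sexes of the mice.

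A stem cell at rest copies little DNA and carries few transcripts of the replication and mitosis machinery, and entry into the cycle brings these up together. CD41 is the alpha chain of the platelet fibrinogen receptor, and stem cells that bear it carry platelet and megakaryocyte transcripts before any megakaryocyte has formed. Loss of platelets raises the demand for new ones, and cytokines that act on stem cells and megakaryocytes signal through JAK kinases and STAT5. The comparison asks in which transcripts CD41- cells from depleted mice come close to unstressed CD41+ cells and in which they stay apart.

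Gene counts as deposited added up to 9950423, 4532371 and 4168395 in the depleted CD41- libraries and to 3775035 and 4266784 in the control CD41+ libraries. Over all 11 libraries the totals ran between 974196 and 9950423. Levels are given as TMM-normalised CPM, read counts brought to a common library size by scaling the libraries to each other, in the order of the replicate numbers. Differences are log2 fold changes of depleted CD41- over control CD41+ ± SE, so that a positive value means more in depleted CD41- cells. Tests are edgeR quasi-likelihood tests with Benjamini-Hochberg adjustment over 13448 genes, and a gene was called at an adjusted p under 0.05. A floor of 3 counts stood at 0.305 to 0.799 CPM in the 5 libraries. The floor considers counting error only, and PCR copies were not told apart by molecular identifiers. The intervals of differences given below come from the quasi-likelihood fit and also take in the spread between libraries.

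The fractions were checked by the gene of the sorting marker. Itga2b (ENSMUSG00000034664, GRCm38 chromosome 11, 102453297 to 102470122, minus strand), which encodes CD41, stood at 44.3, 37.4 and 44.6 CPM in depleted CD41- libraries, against 423 and 353 CPM in control CD41+ libraries and 98.1, 45.9 and 62.3 CPM in control CD41- libraries. All CD41- libraries of both treatments thus lay below both control CD41+ libraries, and as cells were sorted on this protein the difference is no finding. Of the other sort genes, Kit had 321, 552 and 363 CPM in depleted CD41- and 563 and 354 CPM in control CD41+ cells. Slamf1, the gene of CD150, had 32.3, 29.4 and 33.7 CPM in depleted CD41- and 56.7 and 46.8 CPM in control CD41+ cells. Ly6a, a Sca-1 gene, had 148, 160.1 and 258 CPM in depleted CD41- and 124 and 97.5 CPM in control CD41+ cells. Cd48, whose protein was selected against, was read in all of them at 25.3 to 55.6 CPM. None of these 4 was called (adjusted p = 0.311 to 0.967, edgeR).

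Libraries also differed in transcripts of cells that the sort should have removed. The 14 neutrophil genes took 3.67%, 0.438% and 2.12% of counts in depleted CD41- libraries, against 2.51% and 7.67% in control CD41+ libraries. The groups overlapped. Their median fold change was -1.19, and 0.20 without control CD41+ replicate 2. The stromal gene Cxcl12 stood at 1.52, 0.209 and 284 CPM in depleted CD41- libraries, against 189 and 83.6 CPM in control CD41+ libraries. Depleted CD41- replicate 3 thus resembled the CD41+ libraries in this transcript and its 2 fellows did not. The part of such transcripts in the results below was not tested.

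Of all genes tested, 63 were called, 32 higher and 31 lower in depleted CD41- cells, which is 0.468% of genes (0.238% higher and 0.231% lower). For each of the 63, the libraries of the groups did not overlap. Of all genes, 18.9% had all depleted CD41- libraries above and 16.3% below both control CD41+ libraries. Genes called on these same libraries tend not to overlap, so this is no further support. An unadjusted p under 0.05 was found for 1680 genes. In a bulk library, fewer cells that carry a transcript and less of it per cell cannot be told apart. In the same fit 431 genes were called between depleted CD41- and control CD41- cells (3.2% of genes) and 352 between control CD41+ and control CD41- cells (2.62%). The 3 comparisons share libraries, so their values are set side by side here and not counted as separate evidence. The count of 63 leaned on single libraries. Leaving out control CD41+ replicate 1 or 2 gave counts of 11 and 12. Leaving out depleted CD41- replicate 1, 2 or 3 gave 19, 24 and 20. Leaving out depleted CD41+ replicate 1, a shallow library that only helps to set the spread, gave 130. With a control CD41+ library left out, the remaining one is assumed to vary like the other groups. The calls that passed in all 19 alternatives were 9. Lower in depleted CD41- than in control CD41+ cells were Itga2b, Gp5, Gp1bb, Treml1, Tuba8, Cavin2 and Slc14a1, and higher were Socs2 and Ifitm1. Against control CD41- cells, Socs2 and Ifitm1 were called higher too (adjusted p = 9.49e-05 and 0.0159, edgeR). Gp5 was called lower (adjusted p = 0.00147, edgeR), and the other lower genes were not called (adjusted p = 0.0797 to 0.816, edgeR).

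The counts of the lists were also taken without these doubtful libraries. Without control CD41+ replicate 2, calls were left in the platelet receptors (4 lower), platelet signalling and cytoskeleton (2 lower), platelet granules (1 lower), sort genes (1 lower), JAK-STAT genes, stem cell identity and erythroid genes (1 higher each). Without depleted CD41- replicate 3, they were left in the platelet receptors (4 lower), platelet signalling and cytoskeleton (3 lower), and with 1 lower each in granules, sort genes, stromal and endothelial genes and T and NK cell genes. With 1 higher each in that fit stood mitosis, JAK-STAT genes and stem cell identity. All other lists gave 0 calls in these 2 fits. Some medians also moved without control CD41+ replicate 2, as in myeloid priming (0.43, against -0.75 with it), mast cell and basophil genes (1.23, against -0.99) and B and plasma cell genes (-0.27, against -1.49).

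**Figure D1:**
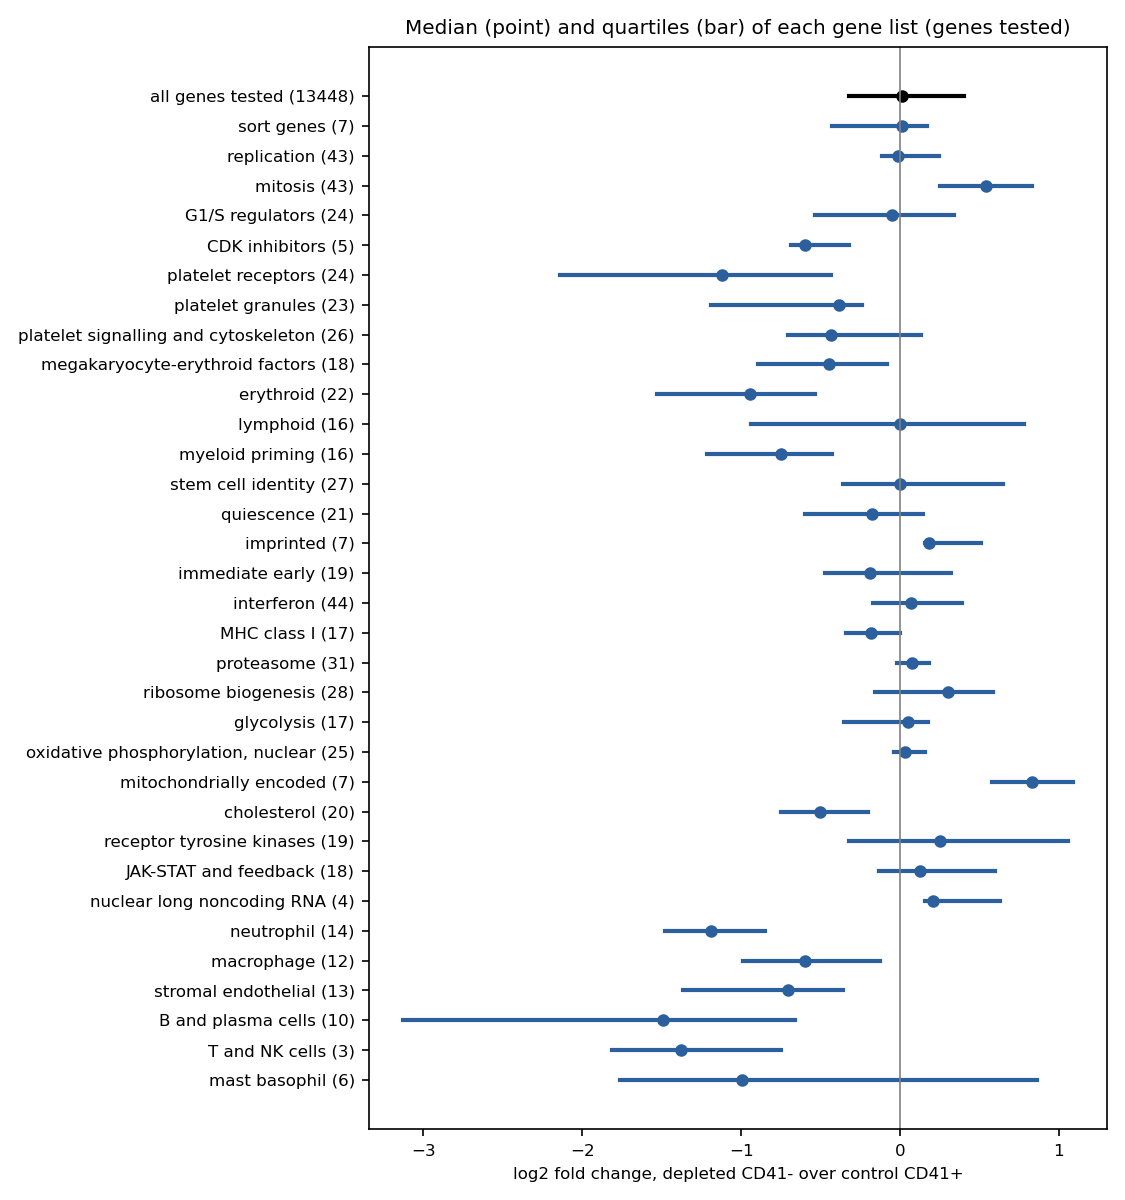
Log2 fold change of depleted CD41- over control CD41+ cells for all tested genes and for 33 gene lists, with the median as a point and the quartiles as a bar; the number of genes tested is in brackets. The medians of replication (-0.01) and nuclear oxidative phosphorylation (0.03) lie near that of all genes (0.01), mitosis (0.54) and mitochondrially encoded genes (0.83) lie above it, and platelet receptors (-1.12) below it.

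DNA replication genes stood at like levels in the groups. None of the 43 replication genes was called in either direction (adjusted p under 0.05, edgeR), and their median log2 fold change was -0.01, against 0.01 for all genes. Only Lig1 and Clspn had an unadjusted p under 0.05, and DESeq2 and limma voom made 0 calls too. A p that misses the threshold does not show that levels are alike, so the 95% interval of each difference was read as well. For 35 of the 43 genes it lay wholly between -1 and 1 on the log2 scale, that is, within a 2-fold difference either way, as it did for 36.9% of all genes. That number was 28 and 30 when control CD41+ replicate 1 or 2 was left out, and 34 when depleted CD41- replicate 3 was. Intervals are narrower for abundant genes, so the share also follows from the level of the list.

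Rrm1 (ENSMUSG00000030978, GRCm38 chromosome 7, 102441695 to 102469771, plus strand), the large subunit of ribonucleotide reductase, which makes the building blocks of DNA, had 969, 975 and 823 CPM in depleted CD41- libraries, against 906 and 973 CPM in control CD41+ libraries and 365, 413 and 334 CPM in control CD41- libraries. The first 2 groups overlapped, and both lay well above control CD41- cells. The difference between them was -0.03 ± 0.16 with a 95% interval of -0.37 to 0.32 (adjusted p = 0.968, edgeR). Tyms, thymidylate synthase, had 191, 184 and 187 CPM in the depleted CD41-, 207 and 185 CPM in the control CD41+ and 90.2, 91.1 and 43.4 CPM in control CD41- cells. Mcm5, a subunit of the helicase that opens the double helix at the fork, had 507, 516 and 451 CPM in the depleted CD41-, 511 and 595 CPM in the control CD41+ and 269.7, 278 and 173 CPM in control CD41- cells. For Mcm5 the interval of the difference was -0.59 to 0.25, and for Tyms -0.60 to 0.47. Cdc6, which loads that helicase, had one of -0.73 to 0.25, and Pcna, the sliding clamp, one of -0.27 to 0.58.

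The members of smallest p were Lig1, Clspn and Dbf4, and all 3 stood higher in depleted CD41- cells. Dbf4, which activates the kinase Cdc7, differed by 0.93 ± 0.44 (adjusted p = 0.401, edgeR). Clspn, the claspin that signals from stalled forks, had 25.0, 18.6 and 22.2 CPM in depleted CD41- and 9.32 and 7.97 CPM in control CD41+ cells (1.34 ± 0.51, adjusted p = 0.299, edgeR). Lig1, the ligase that seals the lagging strand, had 264, 267 and 226 CPM in depleted CD41- and 150.5 and 166 CPM in control CD41+ cells (0.67 ± 0.24, adjusted p = 0.261, edgeR). Neither Clspn nor Lig1 passed, although for both genes every depleted CD41- library lay above both control CD41+ libraries. Rrm2, the small subunit of ribonucleotide reductase, was the most negative at -0.43 (SE 0.27). Against control CD41- cells, 21 of the 43 genes were higher in depleted CD41- cells (median 0.84, where 2.31% of genes were higher) and 18 in control CD41+ cells (median 0.76, where 1.58% of genes were higher), with 0 lower in either.

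**Figure D2:**
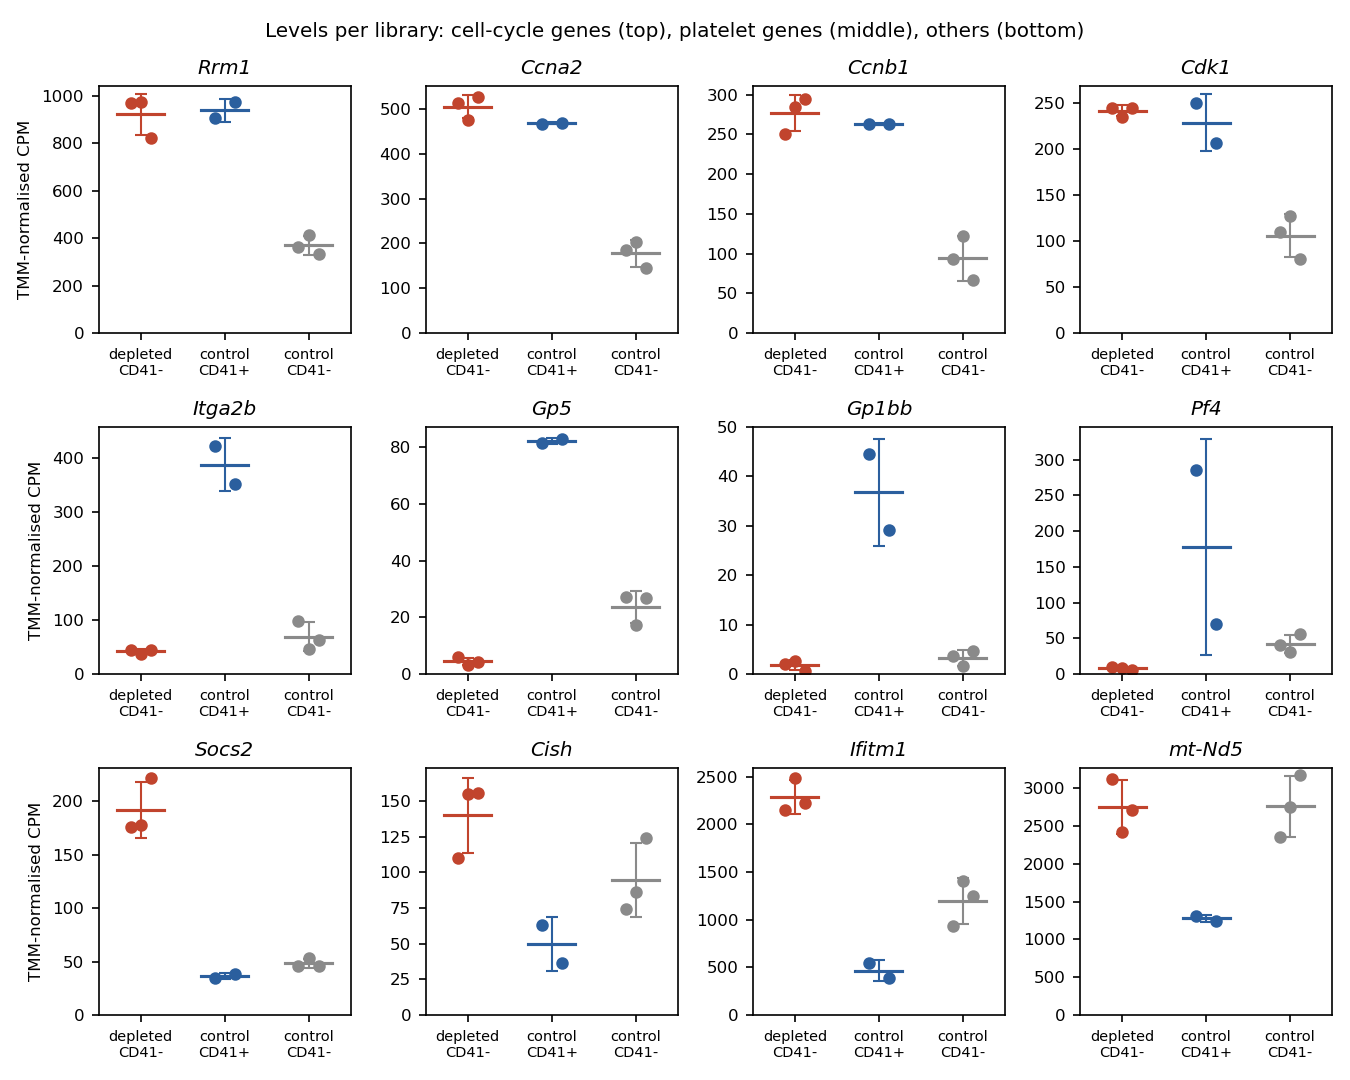
TMM-normalised CPM per library (points), mean (wide line) and SD (bars) for 12 genes in depleted CD41- (n = 3), control CD41+ (n = 2) and control CD41- cells (n = 3), on linear axes from 0. The cell-cycle genes chosen for the top row stand at a like level in depleted CD41- and control CD41+ cells and lower in control CD41- cells. Mitosis genes that stood apart, such as Smc4 and Cenpe, are not drawn. The platelet genes of the middle row are high in control CD41+ cells, and Socs2 is high in depleted CD41- cells.

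Regulators of the G1/S step, where a cell commits to division, gave 0 calls among 24 genes, with a median of -0.05 and 11 intervals within the 2-fold band. An unadjusted p under 0.05 was found for 7 of them, and DESeq2 called 3 lower and limma voom 0. Ccna2, cyclin A2 of S and G2 phase, had 513, 476 and 528 CPM in depleted CD41- libraries, against 467 and 469.7 CPM in control CD41+ and 185, 204 and 145 CPM in control CD41- libraries. Its difference was 0.11 ± 0.21 (interval -0.34 to 0.56). Foxm1, a transcription factor of G2 and mitosis genes, had 24.4, 29.4 and 26.2 CPM in depleted CD41- and 22.4 and 16.5 CPM in control CD41+ cells, against 6.85, 5.22 and 7.27 CPM in control CD41- cells. Ccne2 and Cdk6, which act earlier in the cycle, stood lower without passing. Ccne2, cyclin E2, had 121, 115 and 105 CPM in depleted CD41- and 168 and 189 CPM in control CD41+ cells (-0.65 ± 0.22, adjusted p = 0.233, edgeR), and its 3 depleted libraries lay between the control CD41+ and control CD41- ones. Cdk6, the kinase of cyclin D, had 125, 84.5 and 103 CPM in depleted CD41- and 182 and 180.0 CPM in control CD41+ cells (-0.79 ± 0.19, adjusted p = 0.0829, edgeR), with 172, 185 and 194 CPM in control CD41- cells. Of 7 inhibitors of cyclin-dependent kinases, 5 could be tested and 0 were called by edgeR, DESeq2 or limma voom, with 1 at an unadjusted p under 0.05. Among them Cdkn1b had 6.60, 8.77 and 6.84 CPM in depleted CD41- and 14.1 and 8.23 CPM in control CD41+ cells, and its interval reached beyond a 2-fold difference (-1.78 to 0.59).

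In mitosis, cyclin B1 and its kinase differed by less than 2-fold, and a condensin and a kinetochore gene were higher in depleted CD41- cells. Of 43 genes 2 were higher, Smc4 and Cenpe, and 0 were lower, against 0.238% and 0.231% of all genes. DESeq2 called 6 higher and limma voom 1, and 22 had an unadjusted p under 0.05. Both calls were lost without control CD41+ replicate 1 or 2 (for Smc4 adjusted p = 0.135 and 0.105, for Cenpe 0.135 and 0.266, edgeR). The median was 0.54, and 39 of the 43 had positive and 4 negative differences, only 2 of which passed. In 29 of the 43 all depleted CD41- libraries lay above both control CD41+ libraries, as in 18.9% of all genes. The median was 0.44 and 0.62 without control CD41+ replicates 1 and 2.

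Ccnb1 (ENSMUSG00000041431, GRCm38 chromosome 13, 100778650 to 100786570, minus strand), cyclin B1, had 251, 285 and 294 CPM in depleted CD41- libraries, against 263 and 264 CPM in control CD41+ and 92.9, 123 and 66.7 CPM in control CD41- libraries. Its partner Cdk1, the kinase that starts mitosis, had 245, 235 and 245 CPM in depleted CD41-, 251 and 207 CPM in control CD41+ and 109.7, 127 and 81.0 CPM in control CD41- cells. Aurkb, the kinase that corrects chromosome attachment, had 205, 201 and 200.4 CPM in depleted CD41-, 179 and 234 CPM in control CD41+ and 87.2, 81.4 and 44.4 CPM in control CD41- cells. For these 3 genes depleted CD41- and control CD41+ libraries overlapped or stood side by side, and the intervals were -0.39 to 0.54, -0.39 to 0.55 and -0.56 to 0.50. All 3 were higher than in control CD41- cells both in depleted CD41- (adjusted p = 0.0011, 0.00503 and 0.00261, edgeR) and in control CD41+ cells (adjusted p = 0.00367, 0.0176 and 0.00602, edgeR).

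Smc4 (ENSMUSG00000034349, GRCm38 chromosome 3, 69004738 to 69034623, plus strand), a core subunit of condensin, which compacts chromosomes for division, was higher in depleted CD41- cells. It had 373, 232 and 354 CPM in depleted CD41- libraries, against 114 and 115 CPM in control CD41+ and 154, 124 and 148 CPM in control CD41- libraries. Depleted CD41- cells lay above both control groups, and the difference from control CD41+ cells was 1.49 ± 0.22 (adjusted p = 0.00891, edgeR). Depleted CD41+ libraries, at 210, 289 and 271 CPM, overlapped with the depleted CD41- ones. Its condensin partner Smc2 had 86.1, 97.1 and 97.8 CPM in depleted CD41- and 43.4 and 49.6 CPM in control CD41+ cells (1.01 ± 0.23, adjusted p = 0.0781, edgeR) and did not pass. Cenpe, the kinesin that carries chromosomes to the spindle equator, had 27.1, 26.9 and 46.4 CPM in depleted CD41- and 6.66 and 2.57 CPM in control CD41+ cells, with 15.1, 7.57 and 12.8 CPM in control CD41- cells (2.85 ± 0.56, adjusted p = 0.0404, edgeR). Mki67, which coats mitotic chromosomes and is the usual marker of cycling cells, had 116, 88.5 and 121 CPM in depleted CD41-, 9.59 and 12.1 CPM in control CD41+ and 27.1, 8.09 and 32.0 CPM in control CD41- cells. Both control CD41+ libraries thus had less Mki67 than any depleted CD41- library, but the difference did not pass (3.32 ± 0.76, adjusted p = 0.105, edgeR). Top2a, which untangles sister chromosomes, had 419, 563 and 541 CPM in depleted CD41- and 271 and 305 CPM in control CD41+ cells and did not pass either (0.82 ± 0.31, adjusted p = 0.293, edgeR).

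**Figure D3:**
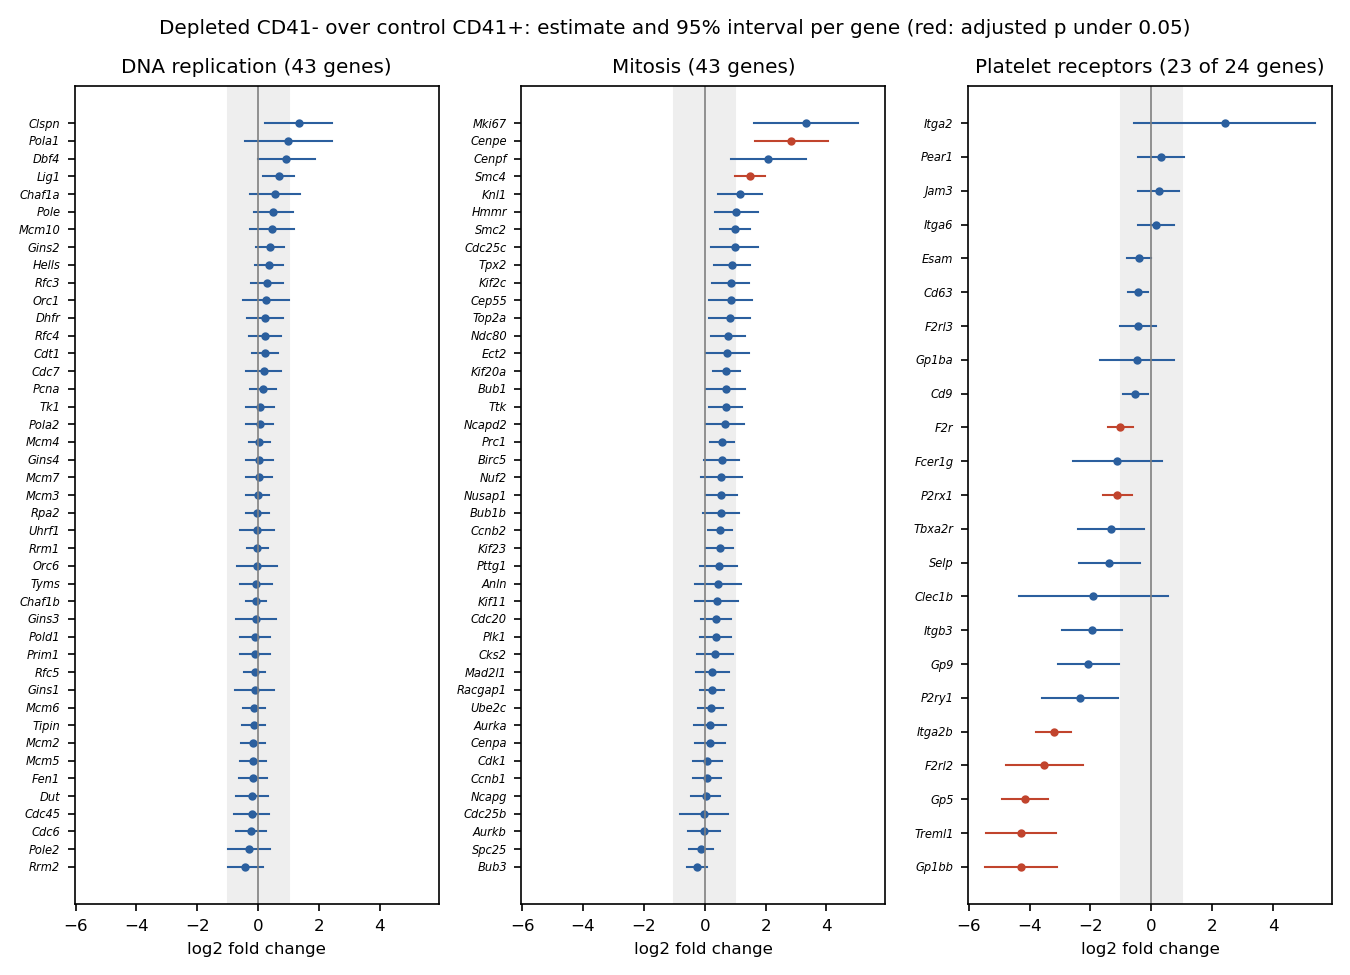
Log2 fold change of depleted CD41- over control CD41+ cells with its 95% interval for genes of 3 lists (all tested genes of the first 2 and 23 of 24 platelet receptors), sorted by size, with called genes in red and the 2-fold band in grey. Replication intervals mostly sit inside the band (35 of 43), mitosis genes shift to the right of 0 with Smc4 and Cenpe called, and 7 of 24 platelet receptors are called on the left.

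Transcript length moved with these differences. By the longest annotated transcript of a gene (GENCODE M21), the median difference of all genes was -0.05 up to 2000 bases, -0.04 from 2001 to 4000, 0.06 from 4001 to 6000, 0.26 from 6001 to 8000 and 0.43 above 8000 bases. The median log2 deviation of genes above 8000 bases from their mean was 0.13, 0.08 and 0.18 in depleted CD41- libraries, against -0.25 and -0.33 in control CD41+ libraries. The part of length in the results was not tested beyond the alternative below. Of the genes called higher, 20 of 32 had transcripts above 4000 bases, as did 5 of 31 called lower and 34.2% of all tested genes. In the mitosis list the 5 genes above 6000 bases had a median of 2.09 and the other 38 genes one of 0.52. With each library's trend over length removed, an alternative chosen after the data were seen, Smc4 was at 1.48 (adjusted p = 0.00554, edgeR), Cenpe at 2.52 (adjusted p = 0.029, edgeR), the mitosis median at 0.60 and the count of called genes at 77, of which 56 were among the 63.

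**Figure D4:**
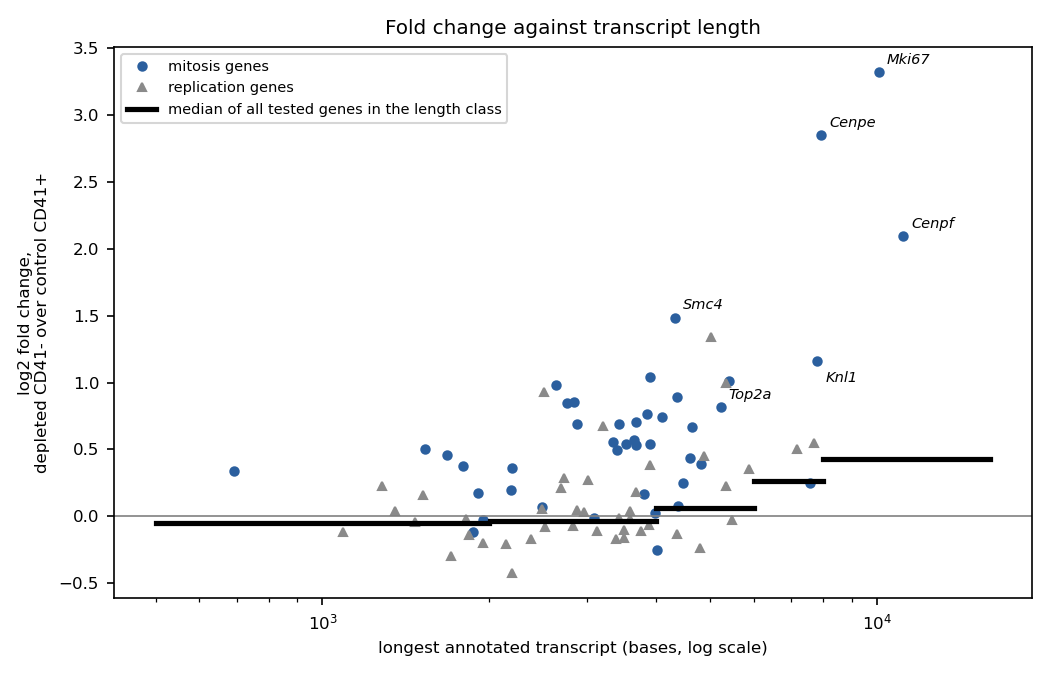
Log2 fold change of depleted CD41- over control CD41+ cells against the longest annotated transcript (log axis), for mitosis genes (circles) and replication genes (triangles), with the median of all tested genes per length class as black lines; the outer classes are open and drawn with arbitrary ends. The medians climb to 0.43 in the longest class, and Mki67, Cenpe and Cenpf, among the longest mitosis genes, have the 3 highest values of that list.

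The promoter of Cdk1 is shown because many mitosis genes were called higher in both main groups than in control CD41- cells. Of the 43, 38 were higher in depleted CD41- cells, where 2.31% of all genes were higher. In control CD41+ cells 23 were higher, where 1.58% of all genes were. Promoter windows of RefSeq (GRCm38.p6) reach from 250 bases before to 50 after the start, and motifs were searched on both strands. CCAAT (the box bound by NF-Y) and TTTGAA (the cell cycle genes homology region, bound by the DREAM and MuvB complexes) were counted apart, and the matches printed share no letters. Of 43 mitosis genes 38 had a window. CCAAT was found in 73.8% and TTTGAA in 76.2% of their 42 windows, against 37.4% and 17.9% of all 32851 windows. In the 42 windows of 36 replication genes the shares were 52.4% and 16.7%. The window of Cdk1 (chr10:69352863-69353162, minus strand, printed along the gene) holds CCAAT 3 times, each read from the other strand as ATTGG, and TTTGAA 2 times, all in capitals. These are matches of letters and not measured binding.
Cdk1: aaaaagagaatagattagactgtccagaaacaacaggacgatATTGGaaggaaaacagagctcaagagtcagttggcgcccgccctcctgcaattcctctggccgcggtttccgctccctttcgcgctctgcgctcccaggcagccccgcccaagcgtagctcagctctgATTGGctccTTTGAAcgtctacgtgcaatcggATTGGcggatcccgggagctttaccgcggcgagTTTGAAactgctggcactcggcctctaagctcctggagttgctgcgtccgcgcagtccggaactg

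Platelet receptors held more calls than any other of the 33 lists. These lists were chosen with earlier results of these data known, so the rank is no further support. Of 27 genes 24 could be tested, and 7 were lower and 0 higher in depleted CD41- cells, against 0.231% and 0.238% of all genes, with a median of -1.12. The 7 were Gp5, Gp1bb, Treml1, F2rl2, Itga2b, P2rx1 and F2r. DESeq2 and limma voom called 10 lower each. In 16 genes all depleted CD41- libraries lay below both control CD41+ libraries, as in 16.3% of all genes. Since the groups were sorted on the product of Itga2b, the count without it is 6 of 23. Gp5, Gp1bb, Treml1 and Itga2b were called when any 1 of the 5 libraries was left out, and F2rl2, P2rx1 and F2r in none of these fits. Gp9 and Itgb3 were called without depleted CD41- replicate 2. Against control CD41- cells, 2 of the 24 were lower and 0 higher in depleted CD41- cells (median -0.64, where 0.9% of genes were lower). In control CD41+ cells 7 were higher and 0 lower than in control CD41- cells (median 0.80, where 1.58% of genes were higher).

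Gp5 (ENSMUSG00000047953, GRCm38 chromosome 16, 30307685 to 30310779, minus strand), part of the GPIb-IX-V receptor by which platelets grip von Willebrand factor, had 5.89, 3.34 and 4.24 CPM in depleted CD41- libraries, against 81.5 and 82.8 CPM in control CD41+ and 27.1, 17.2 and 26.9 CPM in control CD41- libraries. The 3 groups did not overlap, and depleted CD41- cells were the lowest. They were 17.8-fold lower than control CD41+ cells (-4.15 ± 0.35, adjusted p = 4.83e-05, edgeR) and also lower than control CD41- cells (-2.36, adjusted p = 0.00147, edgeR). Gp1bb, the beta chain of the same receptor, had 2.03, 2.71 and 0.707 CPM in depleted CD41- and 44.5 and 29.1 CPM in control CD41+ cells (-4.29 ± 0.56, adjusted p = 0.00273, edgeR). Its 3.56, 1.57 and 4.61 CPM in control CD41- cells overlapped with the depleted ones. Gp9 had 8.43, 22.96 and 8.49 CPM in depleted CD41- and 79.1 and 32.2 CPM in control CD41+ cells and did not pass (-2.07 ± 0.46, adjusted p = 0.0746, edgeR). Gp1ba, the chain that binds von Willebrand factor, had few counts in any group, with 4.98, 6.89 and 2.83 CPM in depleted CD41- and 4.26 and 9.52 CPM in control CD41+ cells. Of the 4 subunits, Gp5 and Gp1bb were thus called.

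Treml1, a receptor kept in alpha granules, had 1.52, 1.25 and 2.36 CPM in depleted CD41- and 41.8 and 24.9 CPM in control CD41+ cells (-4.28 ± 0.54, adjusted p = 0.00195, edgeR). F2rl2, a thrombin receptor that serves as a cofactor on mouse platelets, had 3.76, 2.92 and 0.707 CPM in depleted CD41- and 33.8 and 25.7 CPM in control CD41+ cells (-3.52 ± 0.60, adjusted p = 0.0212, edgeR). The adjusted p was 0.139 and 0.0881 without control CD41+ replicates 1 and 2. F2r, another thrombin receptor, stood at 209.6, 220.5 and 199 CPM in depleted CD41- libraries, against 427 and 419 CPM in control CD41+ and 143, 197 and 216 CPM in control CD41- cells. P2rx1, an ATP-gated channel, stood at 27.7, 37.2 and 29.0 CPM in depleted CD41- libraries, against 67.1 and 69.2 CPM in control CD41+ and 62.5, 55.1 and 56.5 CPM in control CD41- cells. Against control CD41- cells, P2rx1 was called lower (-0.89, adjusted p = 0.0295, edgeR) and F2r was not called (0.18, adjusted p = 0.674, edgeR). Both were lower than in control CD41+ cells and near the threshold (adjusted p = 0.0396 and 0.0421, edgeR), both were lost without either control CD41+ library (adjusted p = 0.15 to 0.211), and P2rx1 was lost with the length trend removed (adjusted p = 0.0533).

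Of 24 genes of platelet granules and their cargo, 23 were tested, 1 was lower (Pf4) and 0 were higher. Of all genes, 0.231% were lower and 0.238% higher. The median of the list was -0.38. Pf4 (ENSMUSG00000029373, GRCm38 chromosome 5, 90772435 to 90773383, plus strand), platelet factor 4, had 9.95, 8.14 and 5.19 CPM in depleted CD41- libraries, against 285 and 70.7 CPM in control CD41+ and 40.8, 31.1 and 56.0 CPM in control CD41- libraries. The control CD41+ libraries lay far apart from each other, yet every depleted library lay below all libraries of both control groups. The difference was -4.48 ± 0.51 from control CD41+ cells (adjusted p = 0.00175, edgeR) and -2.42 from control CD41- cells (adjusted p = 0.0144, edgeR). In a fit of the 5 libraries alone the first of these did not pass (adjusted p = 0.0819, edgeR). Von Willebrand factor, Vwf, did not follow Pf4. It had 35.9, 50.7 and 42.4 CPM in depleted CD41-, 83.6 and 42.2 CPM in control CD41+ and 26.0, 15.9 and 34.7 CPM in control CD41- cells, and did not pass (-0.55 ± 0.33, adjusted p = 0.527, edgeR). Clu, clusterin, had 33.9, 35.1 and 52.8 CPM in depleted CD41-, 76.4 and 62.8 CPM in control CD41+ and 11.5, 14.6 and 24.2 CPM in control CD41- cells. Its depleted libraries stood between the others, higher than control CD41- cells (1.26, adjusted p = 0.0213, edgeR) and not called against control CD41+ cells (-0.78 ± 0.28, adjusted p = 0.27, edgeR).

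Of 30 genes of platelet signalling and cytoskeleton, 26 were tested, 3 were lower and 0 higher, against 0.231% and 0.238% of all genes. The median of the list was -0.43, and -0.01 without control CD41+ replicate 2. Tuba8, an alpha-tubulin isotype, had 18.9, 13.2 and 8.02 CPM in depleted CD41- and 129 and 97.5 CPM in control CD41+ cells (-3.05 ± 0.35, adjusted p = 0.00112, edgeR). Plek, pleckstrin, a substrate of protein kinase C in platelets, had 59.5, 19.4 and 48.6 CPM in depleted CD41- and 327 and 310.4 CPM in control CD41+ cells (-2.90 ± 0.38, adjusted p = 0.00454, edgeR, and 0.0525 without control CD41+ replicate 1). Rap1b, the small GTPase that switches on platelet integrins, had 103, 114 and 154 CPM in depleted CD41- and 292 and 276 CPM in control CD41+ cells (-1.20 ± 0.21, adjusted p = 0.0224, edgeR). Its call was lost without control CD41+ replicate 1 or 2 (adjusted p = 0.166 and 0.105). Cavin2, a caveolar coat gene outside the lists that was picked out after its values were seen, had 33.9, 34.4 and 47.4 CPM in depleted CD41- and 210.4 and 153 CPM in control CD41+ cells (-2.24 ± 0.24, adjusted p = 0.000479, edgeR).

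The promoter windows of Gp5 and Pf4 are shown because these 2 genes were lower in depleted CD41- cells than in both control groups. The same reason holds for P2rx1 and Muc13, whose windows are not shown, so the windows of Gp5 and Pf4 are examples only. AGATAA, the core recognised by GATA factors, was found in 30.4% of the 23 windows of 22 platelet receptor genes, in 5.26% of the 19 windows of 16 granule genes and in 11.2% of all windows. Gp5 (chr16:30310732-30311031, minus strand, printed along the gene) holds it 2 times, read from the other strand as TTATCT, and Pf4 (chr5:90772185-90772484, plus strand) holds it once, all in capitals. A match is a description of the letters only.
Gp5: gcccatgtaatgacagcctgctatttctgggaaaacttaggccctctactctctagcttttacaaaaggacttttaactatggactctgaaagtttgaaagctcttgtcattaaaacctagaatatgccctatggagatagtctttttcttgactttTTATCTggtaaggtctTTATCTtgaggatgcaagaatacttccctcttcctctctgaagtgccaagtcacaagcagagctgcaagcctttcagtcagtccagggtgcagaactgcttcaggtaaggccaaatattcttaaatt
Pf4: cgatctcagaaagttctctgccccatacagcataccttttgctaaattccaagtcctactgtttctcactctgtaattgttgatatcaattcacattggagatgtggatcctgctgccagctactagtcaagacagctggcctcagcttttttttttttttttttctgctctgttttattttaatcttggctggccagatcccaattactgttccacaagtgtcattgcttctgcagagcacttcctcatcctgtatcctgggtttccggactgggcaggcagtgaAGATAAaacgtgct

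Transcription factors of megakaryocyte and erythroid cells gave 2 lower and 0 higher calls among 18 genes, against 0.231% and 0.238% of all genes. The median of the list was -0.44. Gata1 (ENSMUSG00000031162, GRCm38 chromosome X, 7959260 to 7978071, minus strand), the factor that both lineages need, had 27.9, 16.3 and 17.7 CPM in depleted CD41- libraries, against 94.0 and 98.0 CPM in control CD41+ and 30.7, 29.5 and 6.79 CPM in control CD41- libraries (-2.20 ± 0.43, adjusted p = 0.0421, edgeR). Gfi1b, a repressor of both lineages' alternatives, had 66.3, 59.5 and 62.7 CPM in depleted CD41- and 145 and 160.5 CPM in control CD41+ cells, with 89.9, 85.3 and 96.5 CPM in control CD41- cells (-1.28 ± 0.20, adjusted p = 0.0121, edgeR). Neither call held without either control CD41+ library or without any 1 of the depleted CD41- libraries (adjusted p up to 0.206 and 0.105). Other factors differed less and did not pass. Fli1, a driver of megakaryocyte genes, had an interval of -0.71 to -0.04, Nfe2, which acts in late megakaryocytes, one of -0.83 to -0.12, and Gata2, of stem cells and early megakaryocytes, one of -1.02 to 0.20.

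Among 22 erythroid genes tested of 23, 2 were lower and 0 higher, against 0.231% and 0.238% of all genes, with a median of -0.94. They were the water channel Aqp1, at 11.5, 8.98 and 8.02 CPM in depleted CD41- and 48.2 and 36.5 CPM in control CD41+ cells (-2.14 ± 0.35, adjusted p = 0.0177, edgeR), and the erythropoietin receptor Epor, at 19.1, 22.96 and 15.1 CPM in depleted CD41- and 67.4 and 45.3 CPM in control CD41+ cells (-1.56 ± 0.31, adjusted p = 0.0421, edgeR). Neither call held without either control CD41+ library or any depleted CD41- library (adjusted p up to 0.167 and 0.303). Without control CD41+ replicate 2, Cnrip1 was higher and no gene lower. Control CD41- libraries had 14.5, 11.2 and 8.24 CPM of Aqp1 and 19.7, 25.0 and 15.3 CPM of Epor. Neither gene was called between depleted CD41- and control CD41- cells (adjusted p = 0.77 and 0.94, edgeR). Depleted CD41- replicate 1 stood apart in this list, at 0.62 as mean log2 deviation against -1.12 and -0.57 in the other depleted libraries and 0.72 and 0.90 in control CD41+ libraries. The median was -1.58 without it and -0.58 without depleted CD41- replicate 2. Slc14a1, a urea transporter of red cells that is not on the list and was picked out after its values were seen, had 74.1, 50.3 and 42.7 CPM in depleted CD41- and 217 and 182 CPM in control CD41+ cells (-1.83 ± 0.22, adjusted p = 0.00172, edgeR). It had 54.0, 53.2 and 47.0 CPM in control CD41- cells, from which depleted CD41- cells were not called apart (adjusted p = 0.816, edgeR).

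Of 18 tested genes of JAK-STAT signalling and its feedback, 2 were higher in depleted CD41- than in control CD41+ cells, Socs2 and Cish, and 0 lower. Of all genes, 0.238% were higher and 0.231% lower. The median of the list was 0.13. The call of Socs2 held in all 19 alternatives and that of Cish did not. Socs2 (ENSMUSG00000020027, GRCm38 chromosome 10, 95385362 to 95417180, minus strand), a suppressor of cytokine signalling that STAT5 induces, had 176, 177 and 222 CPM in depleted CD41- libraries, against 34.4 and 38.1 CPM in control CD41+ and 46.1, 53.0 and 45.6 CPM in control CD41- libraries. Each depleted library lay at over 3 times the highest control library of either fraction. The level was 5.29-fold that of control CD41+ cells (2.40 ± 0.20, adjusted p = 4.83e-05, edgeR, and at most 0.00417 in the alternatives). It was also higher than in control CD41- cells (1.99, adjusted p = 9.49e-05, edgeR), while control CD41+ and control CD41- cells were not called apart (-0.41, adjusted p = 0.262). Cish, another such suppressor, had 109.9, 155 and 156 CPM in depleted CD41- and 63.1 and 36.5 CPM in control CD41+ cells, with 74.0, 86.4 and 124 CPM in control CD41- cells (1.49 ± 0.29, adjusted p = 0.0346, edgeR). Depleted and control CD41- libraries overlapped for Cish and were not called apart (0.56, adjusted p = 0.253, edgeR), and its call against control CD41+ cells was lost without control CD41+ replicate 1 or 2 (adjusted p = 0.0831 and 0.257) or any depleted CD41- library. Socs3 and Sh2b3 were not called, with intervals of -1.56 to 1.01 and -0.30 to 1.04.

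The window of Cish is shown as that of a known target of STAT5 and 1 of the 2 genes called in this list. The same reason holds for Socs2, whose window is not shown, so the window of Cish is an example only. TTCNNNGAA, the palindrome of STAT5, was found in 8.7% of 23 windows of 17 genes of this list and in 8.3% of all windows. Cish (chr9:107296409-107296708, plus strand) holds it 2 times, in capitals.
Cish: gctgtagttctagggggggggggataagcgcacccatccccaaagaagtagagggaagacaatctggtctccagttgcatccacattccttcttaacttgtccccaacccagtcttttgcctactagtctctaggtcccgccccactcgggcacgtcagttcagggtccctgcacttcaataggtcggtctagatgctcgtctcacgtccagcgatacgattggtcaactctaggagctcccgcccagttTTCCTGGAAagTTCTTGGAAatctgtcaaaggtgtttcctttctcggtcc

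Receptor tyrosine kinases, which the title of the study names, gave 0 calls among 19 tested genes at 0.468% for all genes, with a median of 0.25. An unadjusted p under 0.05 was found for 4, and DESeq2 called 1 higher and limma voom 0. Insr, the insulin receptor, had 13.2, 8.14 and 16.0 CPM in depleted CD41- and 2.13 and 4.63 CPM in control CD41+ cells, with 10.1, 15.1 and 7.27 CPM in control CD41- cells. The depleted libraries lay above both control CD41+ libraries, the difference of 1.87 ± 0.57 did not pass (adjusted p = 0.19, edgeR), and the counts were few. Igf1r, the receptor of insulin-like growth factor, had 51.7, 47.4 and 54.2 CPM in depleted CD41- and 39.4 and 37.3 CPM in control CD41+ cells (0.41 ± 0.37, adjusted p = 0.709, edgeR). Tek, the angiopoietin receptor, had 84.2, 113 and 63.6 CPM in depleted CD41- and 104 and 77.7 CPM in control CD41+ cells (interval -0.88 to 0.75). Flt3, a receptor of lymphoid-primed progenitors, had 125, 112 and 62.9 CPM in depleted CD41- and 29.8 and 40.6 CPM in control CD41+ cells, with 95.7, 136 and 172 CPM in control CD41- cells (1.51 ± 0.37, adjusted p = 0.0971, edgeR).

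Genes of stem cell identity gave 1 higher and 0 lower call among 27, against 0.238% and 0.231% of all genes. The list had a median of 0.00 and quartiles of -0.36 and 0.65. The call was Ifitm1 (ENSMUSG00000025491, GRCm38 chromosome 7, 140967221 to 140969825, plus strand), a membrane protein induced by interferon and present in stem cells. It had 2153, 2483 and 2219 CPM in depleted CD41- libraries, against 546 and 386 CPM in control CD41+ and 932, 1404 and 1245 CPM in control CD41- libraries. The groups did not overlap, and depleted CD41- cells stood highest (2.29 ± 0.23, adjusted p = 0.000365 from control CD41+ cells, and 0.94, adjusted p = 0.0159 from control CD41- cells, edgeR). Hlf, a transcription factor of stem cells, had 146, 154 and 166 CPM in depleted CD41- cells, between 108 and 81.3 CPM in control CD41+ and 342, 251 and 280.0 CPM in control CD41- cells. It was not called against control CD41+ cells (0.72 ± 0.25, adjusted p = 0.244) and was lower than in control CD41- cells (-0.91, adjusted p = 0.0367, edgeR). Procr, the endothelial protein C receptor, had 72.6, 72.2 and 62.9 CPM in depleted CD41- and 42.1 and 33.2 CPM in control CD41+ cells, and Fgd5, another stem cell marker, had 23.4, 37.8 and 25.5 CPM in depleted CD41- and 7.19 and 9.26 CPM in control CD41+ cells. Both stood higher in every depleted library, but neither passed (adjusted p = 0.164 and 0.147, edgeR). Tek and Hoxb5 had differences of -0.06 and -0.08.

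Quiescence genes gave 0 calls among 21 and a median of -0.18, with 6 at an unadjusted p under 0.05, 1 higher by DESeq2 and 0 by limma voom. Pik3ip1, a brake on PI3-kinase, had 158, 163 and 135 CPM in depleted CD41- and 141 and 134 CPM in control CD41+ cells, against 288, 273 and 521 CPM in control CD41- cells. It was lower than in control CD41- cells both in depleted CD41- (-1.25, adjusted p = 0.00683, edgeR) and in control CD41+ cells (-1.39, adjusted p = 0.0134, edgeR), and the 95% interval between these lay within a 2-fold difference (-0.39 to 0.67). Txnip, which slows glucose uptake, had 289, 298 and 280.3 CPM in depleted CD41- and 508 and 446 CPM in control CD41+ cells, against 532, 724 and 716 CPM in control CD41- cells, and did not pass (-0.72 ± 0.23, adjusted p = 0.199, edgeR). Foxo3, a factor that keeps stem cells at rest, went the other way, with 49.7, 47.6 and 53.0 CPM in depleted CD41- and 20.8 and 22.4 CPM in control CD41+ cells, and did not pass either (1.21 ± 0.32, adjusted p = 0.134, edgeR). The nuclear RNA Malat1 had 475, 151 and 328 CPM in depleted CD41- and 365 and 189 CPM in control CD41+ cells, against 2693, 2969.9 and 1450.2 CPM in control CD41- cells. The first 2 groups overlapped and every control CD41- library was higher, with a difference of -2.90 for depleted CD41- (adjusted p = 0.0385) and -3.10 for control CD41+ cells (adjusted p = 0.0623, edgeR, which did not pass).

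In energy supply and protein turnover, the medians of the lists of nuclear genes lay near that of all genes. The median of the mitochondrially encoded list lay above it. Of 25 nuclear genes of oxidative phosphorylation 0 were called, the median was 0.03, all 25 intervals lay within a 2-fold difference, and 1 gene had an unadjusted p under 0.05. The same held for all 31 proteasome genes (median 0.08, 0 called, 1 at an unadjusted p under 0.05) and for 14 of 17 genes of glycolysis (median 0.05, 0 called, 3 at an unadjusted p under 0.05). DESeq2 and limma voom called none in the first 2 lists and 1 lower gene each in glycolysis. Outside these lists, Cox4i2, a nuclear gene of cytochrome c oxidase, was called higher in depleted CD41- cells (2.69, adjusted p = 0.029, edgeR). Ldha, lactate dehydrogenase A, came nearest to a call in glycolysis, with 1451, 1607 and 1462 CPM in depleted CD41- and 2375 and 2954 CPM in control CD41+ cells (-0.82 ± 0.18, adjusted p = 0.0602, edgeR). Of 13 mitochondrially encoded genes 7 were tested and the other 6, such as mt-Co2, were below the filter on counts. Of the 7, 2 were higher in depleted CD41- cells and 0 lower, against 0.238% and 0.231% of all genes, with a median of 0.83. All 13 together took 3.31%, 3.14% and 3.21% of counts in depleted CD41- libraries, against 2.10% and 1.37% in control CD41+ and 3.12% to 3.76% in control CD41- libraries. mt-Nd5 (ENSMUSG00000064367, GRCm38 chromosome M, 11742 to 13565, plus strand), a subunit of NADH dehydrogenase, had 3121, 2423 and 2706 CPM in depleted CD41- and 1311 and 1247 CPM in control CD41+ cells, with 2359, 2749 and 3169 CPM in control CD41- cells. Control CD41+ cells were the low group, and depleted CD41- cells differed from them by 1.10 ± 0.18 (adjusted p = 0.0134, edgeR) and were not called against control CD41- cells (adjusted p = 0.993). The calls of mt-Nd5 and mt-Nd6 were lost without control CD41+ replicate 1 or 2 (adjusted p = 0.127 and 0.105 for mt-Nd5, 0.18 and 0.22 for mt-Nd6, edgeR).

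Immune programmes held few calls. Ifitm1, which interferon induces, was counted with the genes of stem cell identity and not here. Among 44 interferon-response genes 1 was higher and 0 lower, against 0.238% and 0.231% of all genes, with a median of 0.07. Gbp7, a guanylate-binding protein, had 187, 188 and 297 CPM in depleted CD41- and 46.6 and 73.6 CPM in control CD41+ cells, with 206, 124 and 185 CPM in control CD41- cells (1.90 ± 0.34, adjusted p = 0.0286, edgeR, and 0.26 and 0.105 without control CD41+ replicates 1 and 2). Irf7, a transcription factor of the response, overlapped between the groups, with a difference of -0.18. Of 17 genes of MHC class I presentation 0 were called (median -0.18, 4 at an unadjusted p under 0.05, 1 lower each by DESeq2 and limma voom), and 12 intervals lay within a 2-fold difference. Lymphoid genes (16 tested, median 0.00), myeloid priming genes (16, median -0.75), cholesterol genes (20, median -0.50), ribosome biogenesis genes (28, median 0.30), immediate early genes (19, median -0.19) and imprinted genes (7, median 0.18) gave 0 calls each. Over these 106 genes, 17 had an unadjusted p under 0.05, DESeq2 called 2 higher and 2 lower, and limma voom 1 higher.

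Among markers of other cells, Nkg7 of cytotoxic lymphocytes was lower, at 83.6, 56.8 and 75.7 CPM in depleted CD41- and 158 and 217 CPM in control CD41+ cells (-1.38 ± 0.20, adjusted p = 0.00769, edgeR, and 0.105 without control CD41+ replicate 2). It was 1 of 3 tested T and NK cell genes, and 7 others, among them the T cell receptor subunit Cd3e, were below the filter on counts. Ibsp, the bone sialoprotein of osteoblasts, had 0.914, 0 and 0.471 CPM in depleted CD41- and 8.26 and 15.7 CPM in control CD41+ cells and no count in control CD41- libraries, so that the depleted libraries were near or under the floor of 3 counts (-4.43 ± 0.72, adjusted p = 0.0233, edgeR, and 0.0703 and 0.112 without control CD41+ replicates 1 and 2). It was 1 of 13 tested stromal and endothelial genes, which took 0.0118%, 0.0147% and 0.0493% of counts in depleted CD41- and 0.0423% and 0.0219% in control CD41+ libraries. None of 14 neutrophil, 12 macrophage, 10 B and plasma cell and 6 mast cell and basophil genes was called, with medians of -1.19, -0.60, -1.49 and -0.99. Of these 42 genes 3 had an unadjusted p under 0.05, and DESeq2 and limma voom called none.

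The largest increases among called genes, that is, the largest positive differences from control CD41+ cells, lay mostly outside the lists. Myh10 (ENSMUSG00000020900, GRCm38 chromosome 11, 68691559 to 68816632, plus strand), the heavy chain of non-muscle myosin IIB, had 18.6, 23.4 and 17.0 CPM in depleted CD41-, 2.13 and 0.772 CPM in control CD41+ and 5.21, 2.35 and 5.33 CPM in control CD41- cells. It was higher than in both control groups (3.74 ± 0.56, adjusted p = 0.00891 from control CD41+ and 2.18, adjusted p = 0.0112 from control CD41- cells, edgeR). Cox4i2, an alternative subunit of cytochrome c oxidase, had 15.2, 23.4 and 22.9 CPM in depleted CD41-, 3.20 and 3.09 CPM in control CD41+ and 5.76, 3.65 and 2.42 CPM in control CD41- cells, and was also higher than in both (2.69, adjusted p = 0.029, and 2.37, adjusted p = 0.00543, edgeR). In others control CD41+ cells were the low group. Zfp608, a zinc finger gene, had 31.1, 44.0 and 34.4 CPM in depleted CD41-, 4.79 and 3.09 CPM in control CD41+ and 60.9, 38.6 and 97.9 CPM in control CD41- cells (3.20 ± 0.47, adjusted p = 0.00769, edgeR). Epb41l3, of the membrane skeleton, had 29.0, 24.4 and 21.7 CPM in depleted CD41-, 2.66 and 5.14 CPM in control CD41+ and 23.03, 21.7 and 28.4 CPM in control CD41- cells (2.67, adjusted p = 0.0305, edgeR).

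The others of the 10 largest increases, beside Cenpe, were Ubqln2 (3.97), which carries tagged proteins to the proteasome, Cep164 (2.74) and Pcnt (2.73) of the centrosome, Col4a2 (2.60), a basement membrane collagen, and Upf3b (2.44) of nonsense-mediated decay. From control CD41- cells these genes differed by -0.71, 0.20, 1.00, 0.45 and 0.58 in that order, and none was called (adjusted p = 0.207 to 0.849, edgeR). Control CD41+ cells were called lower than control CD41- cells in all of them but Pcnt (adjusted p = 0.0764, edgeR). All of these increases from Ubqln2 to Upf3b, and Myh10, Cox4i2, Zfp608 and Epb41l3, lost their call without control CD41+ replicate 1 or without replicate 2 (adjusted p = 0.0598 to 0.267 and 0.0853 to 0.241, edgeR). Among the decreases, Pde10a, a phosphodiesterase of cyclic nucleotides, had 0.508, 0.835 and 0.943 CPM in depleted CD41- and 13.6 and 14.7 CPM in control CD41+ cells and no count in control CD41- cells (-4.21 ± 0.75, adjusted p = 0.0333, edgeR). Gm15856, a gene without a described role, had 5.08, 2.92 and 1.18 CPM in depleted CD41- and 37.0 and 14.9 CPM in control CD41+ cells (-3.01, adjusted p = 0.0483, edgeR). Pde10a and Gm15856 lost their calls without either control CD41+ library too (adjusted p = 0.172 and 0.326 without replicate 1, 0.149 and 0.0881 without replicate 2).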

How the data were processed

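RNA of 1000 sorted cells per library, pooled from 3 mice, was amplified from poly-dT primers by template switching and sequenced, per the labels' protocols. The authors deposited raw read counts per Ensembl gene; the submitters' processing notes name cutadapt, STAR, HTSeq 0.6.1p1 and the GRCm38 build, and the sources used here state neither annotation release nor strand setting. Reads of overlapping antisense genes may therefore not be told apart. Poly-dT priming starts at the 3′ end, so cDNA that stops early can lower long transcripts; this was not tested.

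From the 49585 deposited entries (49326 with a symbol), 13448 genes passed edgeR's filterByExpr (minimum count 10, minimum total 15) and held 99.7% of counts. They were fitted by the robust quasi-likelihood test of edgeR 4.0.16 (R 4.3.3) with TMM scaling and 4 groups over all 11 libraries, which leaves 7 residual degrees of freedom. Comparisons were contrasts of that fit with Benjamini-Hochberg adjustment over all 13448 genes. The SE was taken from the fold change and its F value, and 95% intervals from the t quantile. DESeq2 1.42.0 and limma 3.58.1 (voom with sample quality weights) were alternatives, and the procedure was tested on simulated data. Log correlations within groups were 0.945 to 0.958 in depleted CD41- and 0.928 in control CD41+ cells.

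The members and the 33 gene lists (661 genes, of which 56 were below the filter) were chosen with earlier results of these data known. Named were the key genes of each list, the 10 largest increases and 10 largest decreases among called genes with at least 5 CPM and no overlap, and in each list up to 3 further members of smallest p. Transcript lengths are from GENCODE M21 and promoter windows from RefSeq. Some genes are not reported here.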

Additional observations from a re-analysis of the deposited data

How the results depend on the processing

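The comparison rests on n = 3 and 2, with fraction and treatment changing together. The 63 calls between depleted CD41- and control CD41+ cells (32 higher, 31 lower) became 446 (234 and 212) with no filter on counts, 369 (227 and 142) by DESeq2, 121 by limma voom with 76 lower, and 190 (129 and 61) in a fit of the 5 libraries alone; scaling by library size alone left 20 lower. DESeq2 also called all 63, limma voom 58 and the 5-library fit 61 of them. Leaving out 1 library at a time gave 11 to 130 calls, 2 to 75 higher and 9 to 55 lower, and 3218 to 5276 genes with an interval within a 2-fold difference. Depleted CD41- against control CD41- cells gave 862 calls with no filter, 851 by DESeq2 and 169 to 560 with 1 library left out. Control CD41+ against control CD41- cells gave 1142 calls with no filter, 994 by DESeq2, 176 by limma voom and 48 to 545 with 1 library left out. Scaling by library size alone moved the median of all genes to 0.11, and those of replication, mitosis and platelet receptors to 0.0898, 0.64 and -1.01. With 1 library left out these 3 medians ran from -0.0495 to 0.0937, 0.44 to 0.62 and -1.16 to -0.96, and with the length trend removed that of replication was 0.0899. Of the values of 282 named genes under 19 alternatives, 4924 kept their side of the threshold, 312 lost it, 113 passed newly and 0 reversed; the cause of these changes was not tested. No paired analysis was possible because the titles number the samples through and no number is shared by 2 groups.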

Other observations

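Cholesterol synthesis genes, which make membrane sterol, stood lower in depleted CD41- cells without passing. In 11 of 20 genes every depleted CD41- library lay below both control CD41+ libraries, as in 16.3% of all genes, while 0 genes lay above, and the median was -0.50. Msmo1, a sterol oxidase, had 93.4, 47.8 and 80.6 CPM in depleted CD41- and 231 and 151 CPM in control CD41+ cells, against 207, 300.1 and 136 CPM in control CD41- cells (-1.37 ± 0.39, adjusted p = 0.166, edgeR). Sqle, squalene epoxidase, had 97.4, 73.5 and 82.0 CPM in depleted CD41- and 116 and 139 CPM in control CD41+ cells, against 124, 139 and 110.3 CPM in control CD41- cells (-0.59 ± 0.19, adjusted p = 0.199, edgeR).

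In ribosome biogenesis, Ncl, the nucleolin of the nucleolus, had 1008, 633 and 953 CPM in depleted CD41- and 403 and 464 CPM in control CD41+ cells (1.00 ± 0.23, adjusted p = 0.0797, edgeR). Polr1b, a subunit of RNA polymerase I, stood the other way, with 97.6, 90.6 and 68.6 CPM in depleted CD41- and 141 and 131 CPM in control CD41+ cells (-0.67 ± 0.25, adjusted p = 0.278, edgeR). The libraries of the groups did not overlap for either gene, and neither passed. Mpo, the myeloperoxidase of granulocyte progenitors and neutrophils, had 1776, 243 and 1405 CPM in depleted CD41- and 417 and 4935 CPM in control CD41+ libraries, a spread within each group that is wider than the difference between them.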
